A study of Camellia sinensis with 6 samples.

Results

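The 47 unigenes described here are the assembled leaf transcripts whose best protein match is annotated as an enzyme of carotenoid synthesis, of the xanthophyll cycle or of carotenoid cleavage. They were found among 127252 unigenes by the words phytoene, carotene, lycopene, zeaxanthin, violaxanthin, neoxanthin, carotenoid and capsanthin in the annotation against the Nr protein database. The match used no measured value, but it was chosen with earlier results of these data known. By their annotation 20 belong to synthesis, 11 to the xanthophyll cycle and 15 to cleavage. The remaining unigene, Unigene72948, matched through the word prephytoene in the name of a prenyl transferase of the alga Cyanophora paradoxa.

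The libraries came from leaves of the tea cultivar ‘Huangjinya’ (Camellia sinensis), which is yellow in strong light and green in weak light. Sunlight plants gave the 3 libraries Y1, Y2 and Y3, and shaded plants, which had stood under a net with about 45% less light for 10 days, gave another 3 (Y+S1 to Y+S3). Leaves of the former were yellow and leaves of the latter green. Both groups were 2-year-old plants of the same field, the leaf was that at the third position from the top, and each library came from different plants. With 1 cultivar and 1 field, the response of other tea plants was not measured.

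Carotenoids are made in plastids from geranylgeranyl diphosphate. Phytoene is desaturated and isomerised to lycopene, and lycopene is cyclised to alpha-carotene, which leads to lutein, or to beta-carotene, which leads to zeaxanthin. In the xanthophyll cycle of leaves, violaxanthin is turned to zeaxanthin in excess light, which helps to dissipate absorbed energy, and back to violaxanthin in weak light. Cleavage of carotenoids yields aroma compounds of tea such as ionones, and also abscisic acid and strigolactones.

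Several contigs stand for most of these enzymes, and the study designed quantitative PCR primers for 13 of the contigs. The pairs are shown for the first enzyme of the pathway, for the de-epoxidase of the xanthophyll cycle, and for the 5 enzymes whose listed contig was not the contig with the highest mean level of that enzyme. All are written in lower case from 5′ to 3′.
PSY, Unigene51424, forward: gatagaaggaatgagattggacc
PSY, Unigene51424, reverse: tgtcctcatctgaaagccctg
VDE, CL2738.Contig1, forward: tcagagatttgtgcaagatcc
VDE, CL2738.Contig1, reverse: tctaattcgggtacaatgctg
LCYE, CL5617.Contig3, forward: ggatcattaccgaatacagagc
LCYE, CL5617.Contig3, reverse: gttccaagctagcatcgagat
LCYB, CL12353.Contig1, forward: agttgtcggcattggtggtac
LCYB, CL12353.Contig1, reverse: gcttaagcagaatatccatacc
ZEP, CL2411.Contig1, forward: cataatagattccagtccagatg
ZEP, CL2411.Contig1, reverse: ccatctttcgcttccataag
NSY, Unigene19522, forward: ggatggtagcgaggttgagg
NSY, Unigene19522, reverse: attcttgttgagccgaggcac
CCD4, CL11428.Contig2, forward: gatgaggtggtttgaagtgcc
CCD4, CL11428.Contig2, reverse: caccccactcttaagatcaatc

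The listed contig held 39.7% of the fragments counted for LCYE, 38.9% of those for LCYB, 61.0% for NSY, 17.7% for CCD4 and 5.51% for ZEP, summed over the 6 libraries. For these enzymes the primer pair therefore named a contig beside which others of the same annotation were counted. No primer pair was listed for NCED, LUT1 or the contigs annotated as phytoene dehydrogenase.

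The libraries held between 10022397 and 18742989 uniquely aligned fragments, of which the 47 members took 6568 to 23881. Their share was lowest in Y1 (0.0756%) and Y+S3 (0.0587%) and between 0.106% and 0.127% in the other 4 libraries. Unigenes of 2000 nt or more, to which 22 members belong, also took the smallest shares in Y1 (15.2%) and Y+S3 (15.6%), against 20.8% to 27.1% elsewhere. Unigenes with a best match in algae or protists took 3.43% of the fragments of Y+S3 and between 0.301% and 0.872% in the other libraries. Leaf markers (106 unigenes of photosynthesis and photorespiration) were detected in every library with 2.48% to 4.35% of the fragments, and the 28 unigenes of other tissues took 0.157% to 0.236%. The 737 unigenes of organelle genomes or ribosomal RNA took 2.48%, 2.58% and 2.65% in Y1, Y+S2 and Y+S3, and 0.939% to 1.55% in the other 3, so the shaded libraries of the 4-library comparison were unlike in this share. The part of these differences in the values below was not tested. The study searched for differentially expressed genes without Y1 and Y+S3, so each comparison is given over the 4 libraries kept there and over all 6. In bulk leaf tissue, fewer cells of a type and less RNA per cell cannot be told apart.

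Across all enzymes no carotenoid unigene passed the test for a difference between shade and sunlight. Of the tested members of synthesis, 14 of 19 had lower values in shade over 4 libraries and 12 of 19 over 6. The median log2 fold changes were -0.15 and -0.05, and 51.9% and 52.6% of all unigenes tested were above 0. Several of the 19 are contigs of the same enzyme, so they are not independent. VDE of the xanthophyll cycle also had lower values. The 5 NCED contigs that were tested had fitted values above 0, but the low ones passed the filter over 4 libraries only through shade. edgeR tested 40 of the 47 members and called 0 at an adjusted p of 0.05 over 4 libraries, where 34 of 64281 unigenes (0.0529%) were called. Over 6 libraries it called 0 members and 0 of 59300 unigenes (0.0%). At the stricter limits of the study, 0.001 for the adjusted p and 1 for the size of the log2 fold change, edgeR called 0 unigenes of any kind in both fits (0.0%). The study used another program, DESeq, at these limits and did report differentially expressed genes, so the 0 here is not its result. At an adjusted p of 0.05 DESeq2 also called 0 members, against 2.9% of unigenes over 4 libraries and 0.989% over 6.

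At an unadjusted p under 0.05, 4 members stood apart over 4 libraries, beside 14.9% of all unigenes. With higher values in shade there were 3, the NCED contigs Unigene40983, CL3040.Contig3 and CL3040.Contig4, beside 7.23% of all unigenes. With lower values there was 1, the LCYB contig Unigene10002, beside 7.69%. Over 6 libraries 0 members did, beside 8.06% of all unigenes (4.39% higher and 3.67% lower). A fold change of at least 1 in size on the log2 scale was estimated for 4 members over 4 libraries and 3 over 6, beside 13.8% and 18.7% of all unigenes, and all but Unigene10002 were NCED contigs. Of these, Unigene40983, also 1 of the 3 above, and Unigene58549 passed the filter in both fits only through shaded libraries. Their values are thus no support. A log2 fold change, shaded over sunlight, was above 0 for 20 members and below 0 for 20 in each fit, and 28 of the 40 had the same sign in both. The median over members was -0.002 in both fits, against 0.03 and 0.04 over all unigenes tested.

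The spread limits these comparisons. The 95% interval of the log2 fold change lay within 1 of 0 for 15 of the 40 members over 4 libraries and for 8 over 6. The standard deviation was larger among the shaded libraries than among the sunlight libraries for 27 of the 40. Y+S1 held the highest value of 15 members, and Y+S2 and Y+S3 held the lowest of 12 and 13.

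**Figure D1:**
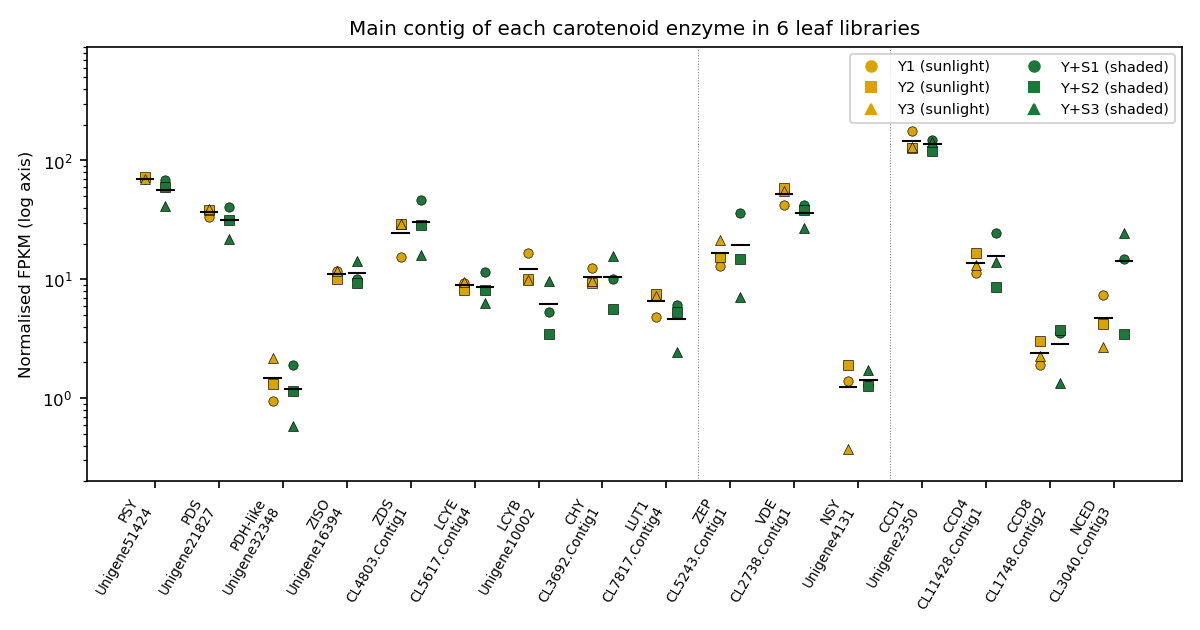
Normalised FPKM (log axis) of the contig with the highest mean level of each of 16 enzymes, with 1 point per library, yellow for sunlight and green for shade, and a black bar at each group mean of 3 libraries. Dotted lines separate synthesis, the xanthophyll cycle and cleavage. CCD1 lies above all other enzymes in every library, and the 3 shaded points are spread more widely than the sunlight points for PSY, ZEP and NCED.

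Levels are given as normalised FPKM, fragments per kilobase and library size in the unit of FPKM, after TMM scaling over the 6 libraries. The comparison between genes is rough, since fragments shared by near-identical contigs were not counted and the ranges below are those of 1 contig per enzyme. The carotenoid enzymes spanned a wide range of levels in the leaf. Unigene2350 (CCD1), the dioxygenase that cleaves many carotenoids to volatile ketones, was the highest, with 120 to 178 normalised FPKM, and its range did not touch that of the next enzyme. PSY (41.7 to 72.4), VDE (27.2 to 59.1), PDS (21.7 to 40.9), ZDS (15.5 to 46.2) and ZEP (7.14 to 36.1) followed, and each range overlapped that of its neighbour. CCD4, ZISO, CHY, NCED, LCYB, LCYE and LUT1 came next, with means of the main contig between 5.57 and 14.7. CCD8, the phytoene dehydrogenase-like contigs and NSY had means between 1.33 and 2.65. CCD1 took 26.8% to 36.9% of the members’ fragments in a library, PSY 11.02% to 16.5% and VDE 8.56% to 16.03%.

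Synthesis opens with phytoene synthase, PSY, the enzyme often held to control the flow into the pathway. Its only contig, Unigene51424, was at 69.7, 72.4 and 69.3 normalised FPKM in Y1, Y2 and Y3 and at 68.0, 59.5 and 41.7 in the shaded libraries, in the order of their numbers. The values of other genes follow the same order. The sunlight plants were alike (70.5 ± 1.68, SD, n = 3) and the shaded plants lower and more spread (56.4 ± 13.4, n = 3), with a narrow gap between the highest shaded and the lowest sunlight value. The log2 fold change was -0.13 over 4 libraries (95% interval -0.70 to 0.43, adjusted p = 0.847) and -0.32 over 6 (adjusted p = 0.820). On the deposited FPKM, which has no TMM scaling, the groups overlapped. PSY was thus not called in either fit, and changes of 1 or more on the log2 scale in either direction lay outside the interval over 4 libraries. Over 6 libraries the 95% interval was -1.11 to 0.47, so a fall of 1 lay within it.

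The desaturation steps that follow did not pass the test either. PDS, phytoene desaturase (Unigene21827), was at 33.2, 38.6 and 39.0 in sunlight and at 40.9, 31.7 and 21.7 in shade, with log2 fold changes of -0.08 over 4 libraries and -0.23 over 6. ZISO, zeta-carotene isomerase (Unigene16394), was at 11.7, 10.1 and 11.7 in sunlight and at 10.1, 9.28 and 14.4 in shade, with log2 fold changes of -0.15 and 0.01. The groups overlapped for both. PDS kept close to PSY in every library, at 0.476 to 0.602 times its level.

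ZDS, zeta-carotene desaturase, had its highest value in Y+S1. CL4803.Contig1 was at 15.5, 29.2 and 29.2 in sunlight and at 46.2, 28.9 and 16.01 in shade. The lowest values were those of Y1 and Y+S3, 1 in each group, and the groups overlapped. This gave a log2 fold change of 0.38 over 4 libraries (95% interval -0.28 to 1.04, adjusted p = 0.576) and 0.30 over 6 (adjusted p = 0.888). Without Y+S1 the value over 4 libraries was -0.01, so this library alone set the sign. The second contig, CL4803.Contig2, was low, with 5 to 35 fragments.

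The 3 contigs annotated as phytoene dehydrogenase were all low (0.313 to 2.2 normalised FPKM). The highest, Unigene32348, was at 0.945, 1.33 and 2.2 in sunlight and at 1.89, 1.14 and 0.58 in shade, with log2 fold changes of -0.19 and -0.29. The KEGG entry of Unigene32352 is cyclin A, so its place among carotenoid enzymes is uncertain.

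At the branch after lycopene, the contigs of the same enzyme differed. LCYE, lycopene epsilon-cyclase, leads to lutein, and LCYB, lycopene beta-cyclase, acts in both branches. For LCYE, CL5617.Contig4 was at 9.37, 8.13 and 9.54 in sunlight and at 11.5, 8.13 and 6.36 in shade. The listed contig of the same cluster, CL5617.Contig3, was at 5.71, 4.98 and 4.94 in sunlight and at 3.93, 3.48 and 5.61 in shade. Their log2 fold changes over 4 libraries were 0.17 and -0.40, and both overlapped between groups.

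Unigene10002, a contig of 619 nt annotated as LCYB, was lower in every shaded library. It was at 16.8, 10.04 and 9.84 in sunlight and at 5.29, 3.48 and 9.78 in shade, and Y+S3 lay just under Y3. This was 1 of 3 tested members whose groups did not overlap (7.50%), beside 14.0% of all unigenes tested, 7.28% lower and 6.67% higher. edgeR gave a log2 fold change of -1.16 over 4 libraries (95% interval -1.90 to -0.41, adjusted p = 0.202) and -0.997 over 6 (-2.11 to 0.12, adjusted p = 0.635). It was also the only tested member whose groups did not overlap on the deposited FPKM. Without Y+S1 it passed the threshold over 4 libraries (log2 fold change -1.502, adjusted p = 0.0100, where 5.03% of all unigenes were called). In that fit shade is 1 library, assumed to vary like the others.

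The long LCYB contigs did not share that difference. CL12353.Contig1 (2071 nt), the listed contig, was at 1.19, 3.38 and 2.82 in sunlight and at 2.86, 2.48 and 2.67 in shade, with log2 fold changes of -0.20 and 0.11. Summed over its 4 contigs, LCYB was at 15.7, 16.5 and 16.6 normalised CPM in sunlight and at 12.4, 10.7 and 15.4 in shade. The summed log2 fold change was -0.50 over 4 libraries (95% interval -1.06 to 0.06, adjusted p = 0.381) and -0.35 over 6 (adjusted p = 0.770).

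Neither hydroxylation passed the test. CHY, the beta-ring hydroxylase that makes zeaxanthin (CL3692.Contig1), was at 12.6, 9.33 and 9.67 in sunlight and at 10.01, 5.68 and 15.7 in shade, with log2 fold changes of -0.26 and -0.01. LUT1, the epsilon-ring hydroxylase of lutein synthesis (CL7817.Contig4), was at 4.81, 7.52 and 7.27 in sunlight and at 6.10, 5.29 and 2.44 in shade, with log2 fold changes of -0.36 and -0.50. The other LUT1 contigs, CL7817.Contig3 and CL7817.Contig2, were at -0.18 and -0.03 over 4 libraries and at 0.27 and 0.15 over 6. Summed, LUT1 was at -0.27 over 4 libraries and -0.13 over 6. The split between LUT1 contigs was unlike the rest in Y+S3, where CL7817.Contig3 held 71.5% of the cluster’s fragments, against 31.3% to 45.0% in the other libraries. Over the whole synthesis group 5 of 19 tested members had a value above 0 over 4 libraries and 7 over 6, with medians of -0.15 and -0.05 on the log2 scale. Of all unigenes tested, 51.9% and 52.6% were above 0.

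In the xanthophyll cycle VDE and the main contig of the opposing enzyme, ZEP, had values on opposite sides of 0, and neither passed the test. The ZEP contigs did not all share that side. Of 8 tested, 4 were below 0 over 4 libraries and 6 over 6, as VDE was. VDE, violaxanthin de-epoxidase, makes zeaxanthin in strong light. Its only contig, CL2738.Contig1, was at 42.3, 59.1 and 55.4 in sunlight and at 42.6, 38.4 and 27.2 in shade. Every shaded library lay below Y2 and Y3, but Y+S1 lay just above Y1. The log2 fold change was -0.48 over 4 libraries (95% interval -1.04 to 0.08, adjusted p = 0.393) and -0.54 over 6 (-1.34 to 0.27, adjusted p = 0.688). It stayed below 0 without any 1 library, between -0.58 and -0.42 over 4 libraries and between -0.68 and -0.36 over 6.

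ZEP, zeaxanthin epoxidase, works in the other direction and feeds violaxanthin back. Its main contig, CL5243.Contig1, was at 13.04, 15.6 and 21.3 in sunlight and at 36.1, 15.0 and 7.14 in shade. The highest and the lowest of the 6 values were thus both shaded. This gave a log2 fold change of 0.49 over 4 libraries (95% interval -0.46 to 1.44, adjusted p = 0.622) and 0.22 over 6 (adjusted p = 0.936). It turned to -0.29 over 4 libraries without Y+S1. Without Y+S2 it was 0.98 and passed the threshold (adjusted p = 0.0230), in a fit that called 9.55% of all unigenes and in which Y+S1 stood alone for shade.

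The other 7 ZEP contigs were lower, between 0.159 and 4.76 normalised FPKM. The listed contig, CL2411.Contig1, was at 2.22, 2.02 and 1.53 in sunlight and at 1.54, 1.13 and 2.97 in shade, with log2 fold changes of -0.38 and -0.05. It therefore lay on the other side of 0 from the main contig in each fit. NSY, the neoxanthin synthase annotation, had 2 short contigs that were too low to be tested. Unigene19522, the listed one, had 0, 4 and 1 fragments in sunlight and 11, 13 and 7 in shade, where a count of 0 allows up to 3. Unigene4131 had 3, 5 and 1 in sunlight and 6, 5 and 3 in shade. Summed, NSY had a log2 fold change of 0.98 over 4 libraries (adjusted p = 0.562) and 1.27 over 6 (adjusted p = 0.636), on 59 fragments in all. The KEGG entries of these contigs are lycopene beta-cyclase and capsanthin/capsorubin synthase, which are related in sequence.

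**Figure D2:**
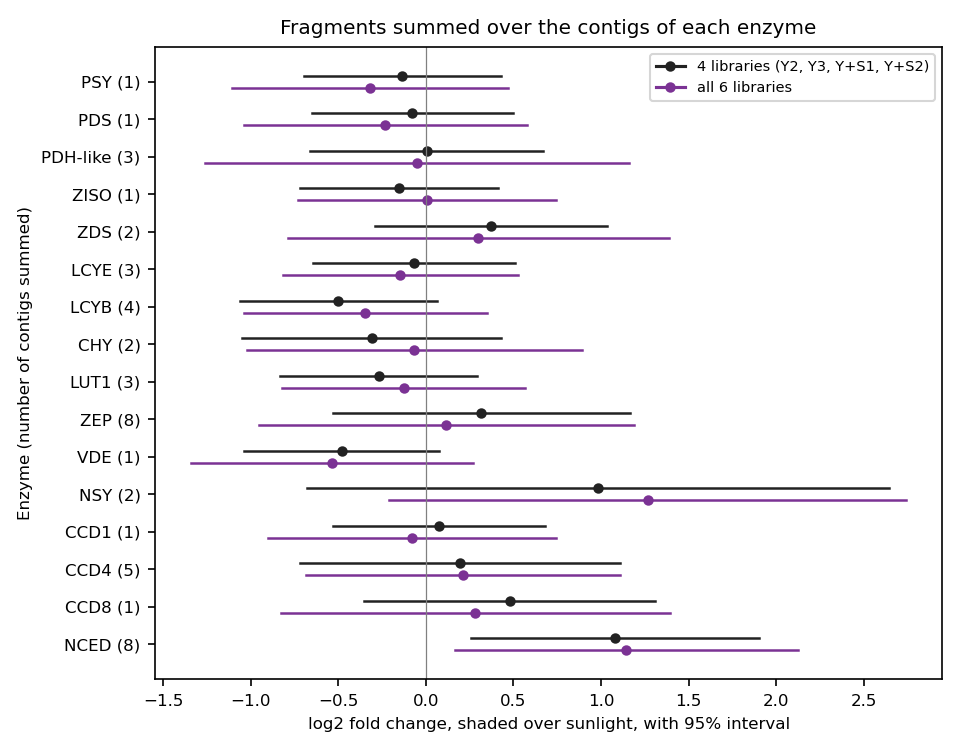
Log2 fold change, shaded over sunlight, of the fragments summed over all contigs of each enzyme, with its 95% interval, over 4 libraries (black) or over all 6 (purple). The number of contigs summed is in parentheses. Only the intervals of NCED lie wholly above 0 in both fits, and no adjusted p is under 0.238.

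When the contigs of an enzyme were summed, 0 of 16 enzymes passed an adjusted p of 0.05 in either fit. NCED was the only one with an unadjusted p under 0.05 in both. The 95% interval lay within 1 of 0 on the log2 scale for 7 of the 16 over 4 libraries and for 4 over 6. For the remaining enzymes a change of 1 was within the interval in at least 1 direction.

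Cleavage held most of the higher values. Of its 12 tested members 11 had a log2 fold change above 0 in each fit, with medians of 0.58 and 0.37, whereas 51.9% and 52.6% of all unigenes tested were above 0. The 12 are not independent, since 5 are CCD4 contigs of 1 cluster and 3 are NCED contigs of another. Low NCED contigs, named below, passed the filter over 4 libraries only through their shaded libraries. The count of 11 is thus partly set by the filter.

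NCED, the epoxycarotenoid dioxygenase that makes the precursor of abscisic acid, had 8 contigs. All 5 that were tested had fitted values above 0, with a median log2 fold change of 1.24 over 4 libraries and 1.14 over 6. Group means did not all follow, since CL3040.Contig2 had a mean of 0.445 normalised FPKM in sunlight and 0.435 in shade, and the untested Unigene69030 had 1.32 and 1.24. Over 4 libraries Unigene40983, Unigene58549 and CL3040.Contig2 passed the filter only through their shaded libraries, and the former contigs also over 6. Their fitted values, and the median, which is that of Unigene58549, are thus no support. CL3040.Contig3 was at 7.36, 4.24 and 2.68 in sunlight and at 14.9, 3.48 and 24.6 in shade. Y+S1 and Y+S3 lay well above all sunlight libraries and Y+S2 lay among them. edgeR gave a log2 fold change of 1.43 over 4 libraries (95% interval 0.01 to 2.85, adjusted p = 0.334) and 1.59 over 6 (-0.03 to 3.21, adjusted p = 0.620).

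CL3040.Contig4 (4170 nt), the longest member, was higher in every shaded library. It was at 3.21, 2.79 and 3.11 in sunlight and at 5.03, 4.08 and 3.91 in shade. The log2 fold change was 0.65 over 4 libraries (95% interval 0.06 to 1.23, adjusted p = 0.293) and 0.52 over 6 (adjusted p = 0.656). On the deposited FPKM its groups overlapped.

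The remaining NCED contigs were low, and 2 of them are named here after their values were seen. Unigene40983 had 0, 7 and 10 fragments in sunlight and 44, 53 and 3 in shade, high in Y+S1 and Y+S2 and at the sunlight level in Y+S3. Its log2 fold change was 1.85 over 4 libraries (adjusted p = 0.181, the lowest of any member) and 1.93 over 6 (adjusted p = 0.635). In sunlight only Y3 reached the level of the filter, so Unigene40983 was tested only through Y+S1 and Y+S2, where it is high. Its values are thus no support. CL3040.Contig1 had 4, 3 and 2 fragments in sunlight and 49, 5 and 24 in shade, and like CL3040.Contig3 of the same cluster it was high in Y+S1 and Y+S3. The 2 patterns differ in which shaded library was low.

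Summed over its contigs, NCED was at 34.6, 24.5 and 22.9 normalised CPM in sunlight (27.3 ± 6.32, SD, n = 3) and at 66.7, 32.3 and 82.2 in shade (60.4 ± 25.5, n = 3). Y+S2 lay below Y1, and the other shaded libraries lay above all sunlight libraries. This gave a log2 fold change of 1.08 over 4 libraries (95% interval 0.26 to 1.90, adjusted p = 0.238) and 1.14 over 6 (0.16 to 2.12, adjusted p = 0.583). It stayed above 0 when any 1 library was left out, between 0.45 and 1.498 over 4 libraries and between 0.86 and 1.45 over 6. Without Y+S2, with Y+S1 as the only shaded library, the 4-library log2 fold change was 1.498 for the sum and 2.11 for CL3040.Contig3. CL3040.Contig1 passed the filter in that fit only through Y+S1, where it is high, so its value there is no support. Without Y+S1, with Y+S2 as the only shaded library, CL3040.Contig3 fell to 0.02 and Unigene40983 was at 2.07. A fit with 1 shaded library does not measure the spread within shade, so these are sizes only. Which NCED contig stood apart therefore depended on the shaded library kept.

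**Figure D3:**
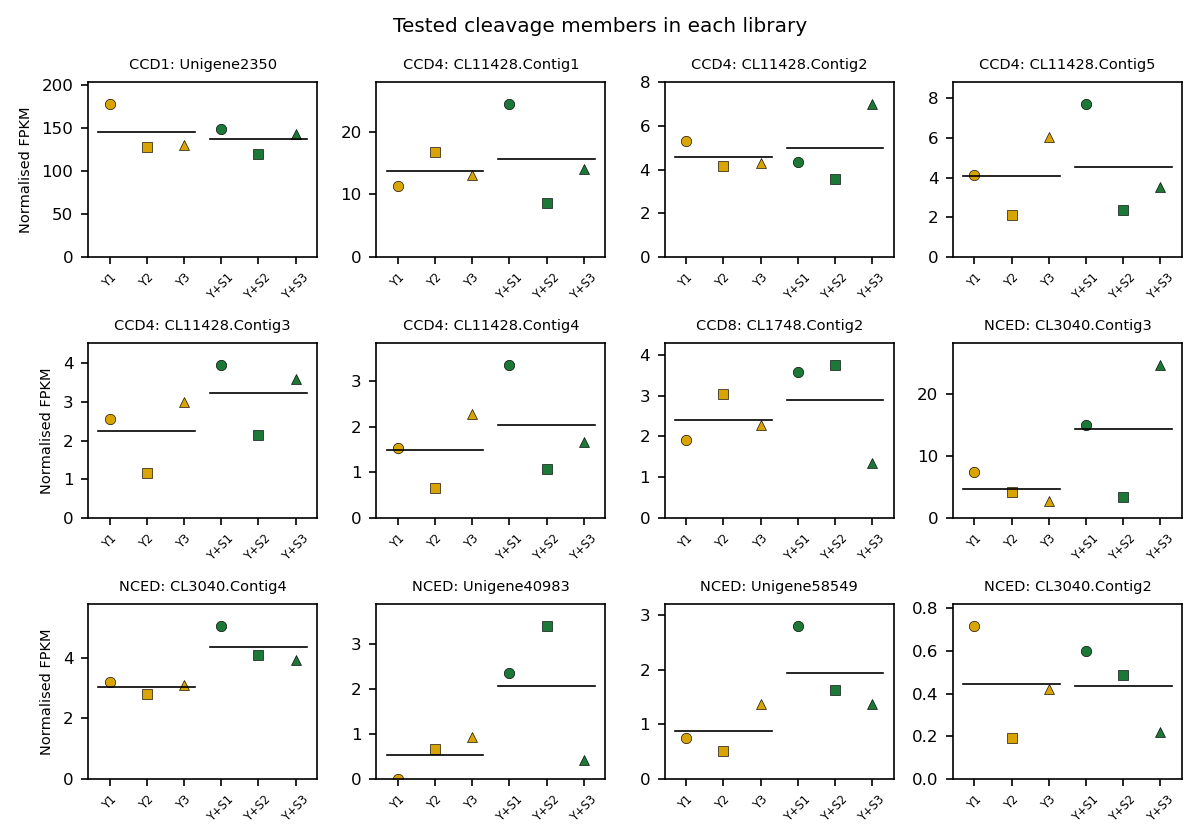
Normalised FPKM (linear axis from 0) of the 12 tested cleavage members, with 1 panel per contig, 1 point per library (yellow for sunlight, green for shade) and a line at each group mean of 3 libraries. CL3040.Contig3 is high in Y+S1 (14.9) and Y+S3 (24.6), Unigene40983 in Y+S1 (2.37) and Y+S2 (3.40), and the 3 shaded values of CL3040.Contig4 lie above its 3 sunlight values.

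The carotenoid cleavage dioxygenases did not differ beyond their spread. CCD1 (Unigene2350) was at 178, 128 and 131 in sunlight and at 149, 120 and 143 in shade. Its log2 fold change was 0.08 over 4 libraries (95% interval -0.53 to 0.68, adjusted p = 0.927) and -0.08 over 6 (-0.90 to 0.74, adjusted p = 0.966), and a change of 1 on the log2 scale lay outside both intervals. CCD4, which cleaves carotenoids to aroma ketones in flowers and leaves of several plants, had 5 contigs of 1 cluster. CL11428.Contig1 was at 11.3, 16.7 and 13.2 in sunlight and at 24.4, 8.64 and 14.1 in shade, with log2 fold changes of 0.16 and 0.19. The listed CL11428.Contig2 was at 5.304, 4.16 and 4.33 in sunlight and at 4.37, 3.57 and 6.99 in shade, with -0.08 and 0.11. The highest value of CL11428.Contig1 was in Y+S1, that of CL11428.Contig2 in Y+S3. CCD8, an enzyme of strigolactone synthesis (CL1748.Contig2), was at 1.92, 3.03 and 2.28 in sunlight and at 3.57, 3.74 and 1.35 in shade, with log2 fold changes of 0.48 and 0.28.

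The 13 contigs with listed primers were chosen by the study and are no independent sample of the pathway. From quantitative PCR the study reported higher expression of the carotenoid synthesis genes in shade. That is another measure than the fragment counts given here, and the measures were not compared. Of the 12 that were tested, 3 had a log2 fold change above 0 over 4 libraries and 5 over 6, with medians of -0.14 and -0.03. None had an unadjusted p under 0.05 in either edgeR fit, and 0 were called. The lowest adjusted p was 0.393 over 4 libraries and 0.688 over 6, both for VDE. DESeq2 called 0 members of any kind.

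**Figure D4:**
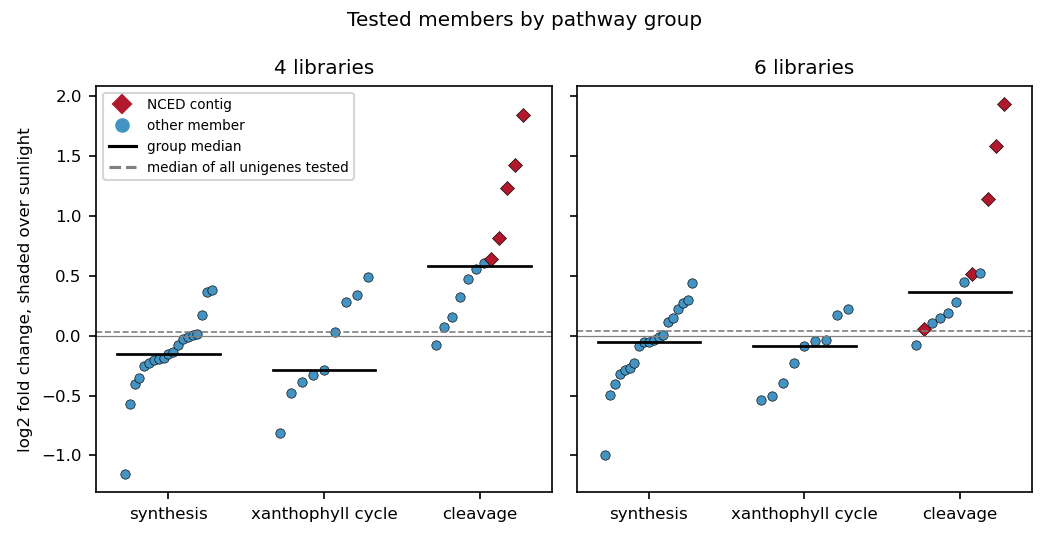
Log2 fold change, shaded over sunlight, of each of the 40 tested members by pathway group, over 4 and over 6 libraries, with NCED contigs as red diamonds, other members as blue circles, a black line at the group median and a dashed line at the median of all unigenes tested. The points of synthesis and the xanthophyll cycle scatter around 0. All 5 NCED contigs lie above 0 in both panels, and the low ones passed the filter over 4 libraries only through shade.

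Ratios between enzymes within a library do not depend on the scaling between libraries. Of 6 ratios computed, the 3 below and that of PDS to PSY were chosen after their values were seen and are given without a test. NCED to PSY was 0.213, 0.153 and 0.144 in sunlight and 0.439, 0.283 and 0.799 in shade, so every shaded library lay above every sunlight library. ZEP to VDE was 0.628, 0.525 and 0.725 in sunlight and 1.23, 0.735 and 0.677 in shade, where Y+S1 stood apart and Y+S3 lay below Y3. LCYE to LCYB was 0.845, 0.968 and 0.996 in sunlight and 1.67, 1.60 and 0.887 in shade, high in Y+S1 and Y+S2 and not in Y+S3.

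**Figure D5:**
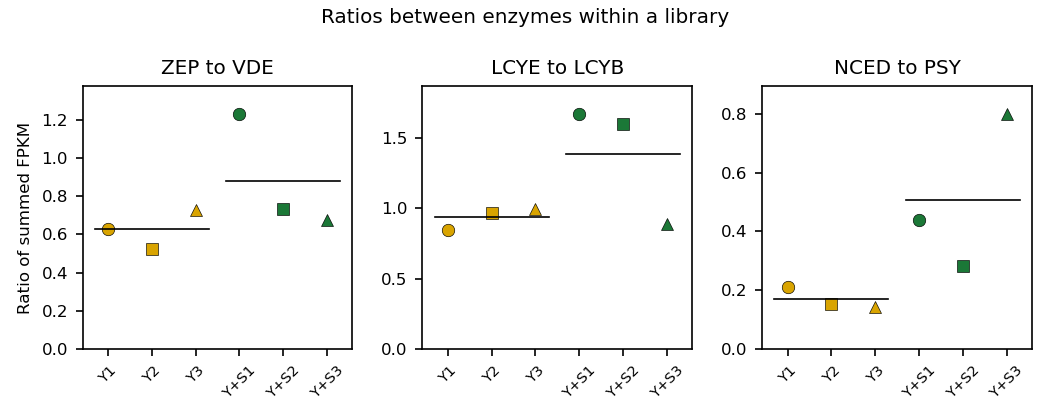
Ratio of the normalised FPKM summed over the contigs of 2 enzymes, in each library (yellow for sunlight, green for shade), with a line at each group mean of 3 libraries and axes from 0. The shaded values of NCED to PSY (0.283 to 0.799) lie above the sunlight values (0.144 to 0.213), and the groups overlap for ZEP to VDE and for LCYE to LCYB.

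Genes beside the carotenoid enzymes had mostly lower values in shade, and none passed the test. The list holds 29 unigenes, namely 9 of geranylgeranyl diphosphate synthase (GGPS, which makes the precursor of phytoene), 2 CYP97 hydroxylases, 1 aldehyde oxidase (the last step to abscisic acid) and 17 fibrillins (proteins of plastoglobules, where carotenoids are stored). Over 4 libraries 5 of 25 tested had a log2 fold change above 0 and 20 below, with a median of -0.56. Over 6 libraries these were 6 and 18 of 24, with a median of -0.39. Of all unigenes tested, 51.9% over 4 libraries and 52.6% over 6 were above 0. In edgeR 0 of the list were called, beside 0.0529% and 0.0% of all unigenes. An unadjusted p under 0.05 was found for 3 and 1, beside 14.9% and 8.06% of all unigenes. Several of the list are contigs of the same cluster, so they are not independent.

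The GGPS unigene CL3306.Contig2 was at 15.5, 28.2 and 23.8 normalised FPKM in sunlight and at 30.1, 23.3 and 38.1 in shade. Its groups overlapped, and its log2 fold change was 0.06 over 4 libraries and 0.44 over 6. Another GGPS unigene of similar level, Unigene31998, was at 30.1, 29.3 and 24.9 in sunlight and at 21.3, 11.6 and 17.4 in shade. Its groups did not overlap, and its log2 fold change was -0.70 over 4 libraries (adjusted p = 0.364) and -0.74 over 6 (adjusted p = 0.622). The fibrillin Unigene39292 was at 117, 124 and 117 in sunlight and at 85.2, 63.5 and 122 in shade. The fibrillin Unigene22596, the highest of the list, was at 242, 219 and 191 in sunlight and at 153, 113 and 243 in shade. Both of these fibrillins were lower in Y+S1 and Y+S2 and at the sunlight level in Y+S3. Another high fibrillin, Unigene46163, did not share this. It was at 73.8, 146 and 147 in sunlight and at 155, 95.8 and 165 in shade. Its groups overlapped, and its log2 fold change was -0.21 over 4 libraries and 0.18 over 6. Of 15 fibrillins tested, 3 had values above 0 over 4 libraries and 4 over 6. The aldehyde oxidase Unigene56285 was at 9.03, 8.55 and 9.23 in sunlight and at 11.4, 11.2 and 6.08 in shade, with Y+S3 apart from the other shaded libraries.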

How the data were processed

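Per the labels and the study’s methods, stranded mRNA libraries of all 6 samples were sequenced on 1 lane, and reads with over 5% unknown bases, or in which over 20% of bases had a quality up to 10, were removed. The authors used Trinity, TGICL and Phrap for the assembly and deposited, for each unigene and library, the count of uniquely aligned fragments and the FPKM. The aligner and the use of strand are not given in the sources used here. Fragments shared by near-identical contigs were not counted, so the contigs of a cluster are less certain than single unigenes, and contigs were also summed by enzyme.

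Column codes were matched to libraries with the key deposited beside the table. The codes in the descriptions of 2 samples conflict with it, and the other 4 match no column. The groups and the 6-library fit are the same either way, but every value given for a single library and the 4-library fit rest on the key. 1 unigene of the table was not used here.

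Counts went through filterByExpr and TMM scaling in edgeR 4.0.16 (R 4.3.3), and its quasi-likelihood test was run over all unigenes with Benjamini-Hochberg adjustment, and the programs were tested on simulated data. The 4-library fit follows the study, which left out 2 libraries. Alternatives were DESeq2 1.42.0, its scaling in edgeR, no filter, limma 3.58.1 on log2(FPKM + 0.5) where the mean was at least 1, the replicate number as a block, each library left out, and 1 contig per cluster or enzyme. Other scalings of the enzyme sums, and the overlap on deposited FPKM and without each library, were added after the data were seen. Intervals are 95% intervals of the fit, and p-values measure the spread between these plants.

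Named are the contigs with listed primers, the highest contig of each enzyme, any member called, and the largest of the members whose groups did not overlap (a mean FPKM of at least 1). DESeq2 gave no adjusted p for 18 members over 4 libraries. The members, lists and tests were chosen with earlier results of these data known. Reference sequences of the contigs were not used here.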

Additional observations from a re-analysis of the deposited data

How the results depend on the processing

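The study’s methods state no pairing of samples by replicate number. The deviations of same-numbered libraries from their group means correlated at -0.37, 0.01 and -0.48, and those of other pairs at -0.29 to 0.42. Such correlations cannot decide whether samples were paired, since the deviations within a group sum to 0. With the replicate number as a block 0 members and 0 enzyme sums were called over 6 libraries, as without it. The members’ median log2 fold change was -0.05, and ZISO (Unigene16394) turned to -0.015 and ZEP (CL5243.Contig1) to -0.051. The block changed no call.

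DESeq2, its scaling, no filter and limma left the count of called members at 0. With each cluster counted once, 13 members were higher and 12 lower over 4 libraries and 10 higher over 6. On the deposited FPKM 1 tested member did not overlap between groups, and no share over all unigenes is given beside it, so this count cannot be read further. ZISO turned to -0.016 over 6 libraries both without a filter and in limma, and ZEP (CL5243.Contig1) to -0.038 in limma.

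Leaving out 1 library changed more. Over 4 libraries each such fit leaves 1 library in a group, so its calls are not counted here. In these fits 11 to 28 members were higher and 14 to 30 lower. Their median log2 fold change ran from -0.28 (without Y+S1) to 0.20. Over 6 libraries 0 members were called without any 1 library, beside 0.0% to 0.0104% of all unigenes. There 14 to 28 were higher and 13 (without Y3) to 26 lower, and 3 to 11 did not overlap, most without Y+S3. Fewer libraries leave fewer values to overlap, and no share over all unigenes is given beside these counts. The sign of single contigs turned over 4 libraries, with log2 fold changes of -0.099 to 0.21 for CCD1, -0.79 to 0.71 (CL11428.Contig1) and -0.24 to 0.050 (CL11428.Contig2) for CCD4, -0.73 to 0.084 for CHY, -0.11 to 0.40 for LCYE (CL5617.Contig4), -0.62 to 0.16 for Unigene32348, -0.28 to 0.086 for PDS, -0.0077 to 0.67 for ZDS and -0.29 to 0.98 for ZEP. Over 6 it turned for CCD1 (-0.17 to 0.11), both CCD4 contigs (-0.29 to 0.50 and -0.20 to 0.31), CHY (-0.42 to 0.30), LCYB (CL12353.Contig1, -0.20 to 0.43), LCYE (-0.32 to 0.13), Unigene32348 (-0.77 to 0.089), ZDS (-0.14 to 0.62), ZISO (-0.20 to 0.13), and the ZEP contigs CL5243.Contig1 (-0.59 to 0.63) and CL2411.Contig1 (-0.51 to 0.23). The cause was not tested. PSY, VDE, the LUT1 contig CL7817.Contig4, CCD8, Unigene10002, CL3040.Contig3, CL3040.Contig4 and summed LCYB, NSY and NCED kept their sign in every fit without 1 library in which they were tested. At 3 libraries a group, changes below 1 on the log2 scale were within most intervals, which limits what these counts can show.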

Other observations

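Unigene72948, the member with a match to a prenyl transferase of the alga Cyanophora paradoxa, had 1, 4 and 3 fragments in the sunlight libraries and 8, 7 and 49 in the shaded ones. It was too low to be tested. Its high library, Y+S3, is also the library in which unigenes with a best match in algae or protists took 3.43% of the fragments, against 0.872% or less elsewhere, and unigenes with a best match in mosses and lycophytes took 0.424%, against 0.117% or less. The part of these in its value was not tested.

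Contigs of a cluster did not always keep their proportions. CL3692.Contig1 held 85.1%, 81.9% and 83.3% of the fragments of the 2 CHY contigs in sunlight and 85.1%, 86.5% and 88.2% in shade. CL3040.Contig3 held 54.5%, 45.9% and 32.2% of those of its NCED cluster in sunlight and 60.03%, 32.03% and 75.2% in shade. These shares were looked at after the values were seen and are given without a test.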
